A study of Drosophila melanogaster with 2 samples.

Results

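The genes that encode the subunits of the proteasome were examined for binding by ZIPIC, an insulator (architectural) protein that contacts DNA through zinc fingers. They were taken by symbol from the Ensembl annotation of Drosophila melanogaster, as protein-coding genes whose names begin with Prosalpha, Prosbeta, Rpn or Rpt and, for the last pair, a number. This gave 48 of 13945 protein-coding genes. The rule reads symbols and no signal value, although the family was picked with earlier results of these data known. Of these, 32 are the general subunits (7 alpha, 7 beta, 6 Rpt and 12 Rpn), and 16 carry the suffix T or R that marks duplicated copies. Prosalpha and Prosbeta make up the core particle, Rpt and Rpn the regulatory particle.

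The data are chromatin immunoprecipitation followed by sequencing (ChIP-seq) from 2 biological replicates, numbered 2 and 3, which form 1 group. Whole embryos aged 0 to 24 h, male and female together, came from a transgenic line that stably expresses CG7928 (ZIPIC) fused at its C terminus to green fluorescent protein (GFP), and the fusion was precipitated with an antibody against GFP. Each measured site is therefore a site of the tagged transgene product, averaged over all cells and stages of the collection. A single control alignment served both replicates, no second condition was sampled, and a GFP precipitation from embryos without the tag was not analysed here.

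The proteasome is the protease that degrades ubiquitin-tagged proteins in the cytoplasm and nucleus. Its core particle is a barrel of stacked alpha and beta rings with the proteolytic sites inside, and the regulatory particle recognises, unfolds and feeds in the substrates. In Drosophila many of the T and R copies are known from expression in the testis, whereas the general subunits are needed in nearly all cells.

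Each deposited dm6 list gives an interval, a summit and the authors' signal value per entry, a score whose scale is not given in the sources used here. Each replicate and the pooled replicates had a list of 30000 candidates, and 2971 optimal peaks are the strongest 2971 pooled entries. A gene is called bound below when an optimal summit lies within 500 bp of one of its annotated starts. Optimal signal ran from 126 to 7447, with a median of 209.

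Optimal peaks lay at 9 of the 48 genes (18.8%, exact 95% Clopper-Pearson interval 8.95 to 32.6%), against 18.4% of all protein-coding genes. The share over the whole set was thus near the background. The bound genes were Prosalpha3, Prosalpha4, Prosbeta1 and Prosbeta2 of the core particle, Rpn2, Rpn5, Rpn12 and Rpt4 of the regulatory particle, and Rpt6R among the duplicated copies. Their strengths differed widely: the 4 core genes and Rpn12 were among the strongest 403 peaks, Rpt6R ranked 755, and Rpn5, Rpt4 and Rpn2 lay between ranks 1598 and 2474. The plot of signal by gene shows this spread.

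**Figure D1:**
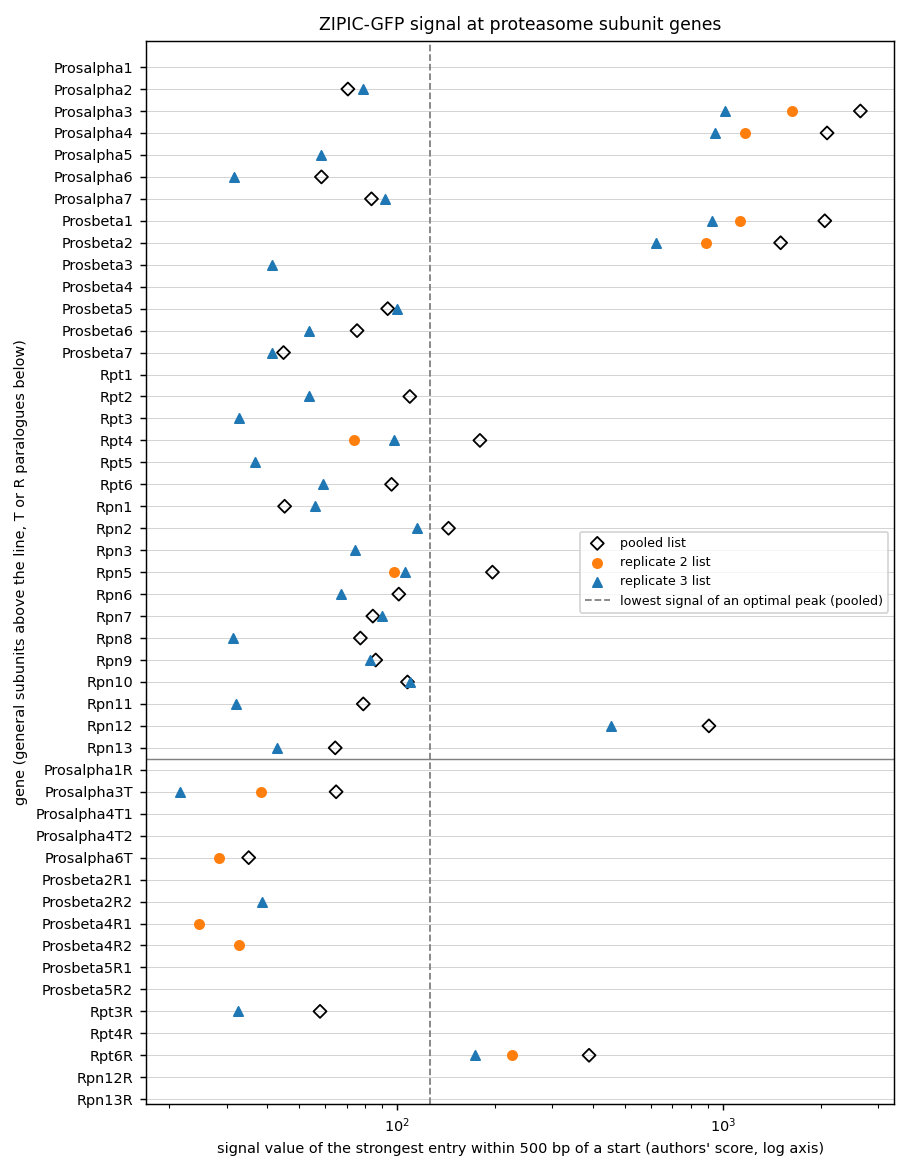
Signal value (authors' score, log axis) of the strongest entry within 500 bp of a start for each of the 48 genes, in the pooled list (diamonds), replicate 2 (circles) and replicate 3 (triangles); the dashed line is the lowest signal of an optimal peak, 126, and a row without a symbol had no entry in these lists. The 4 bound core genes sit at 1504 or above in the pooled list, and most other general subunits have a replicate 3 entry and a pooled entry below the line.

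The sequences around 7 of these 9 summits are shown to compare strong with weak sites (dm6, plus strand, 5′ to 3′); those at Prosalpha3 and Prosbeta1, which hold CAGGGCTG, are not printed here. Capitals mark AGGGNTG or its reverse complement; this string, and CAGGGCTG which contains it as AGGGCTG, are forms of the ZIPIC recognition sequence, chosen with earlier results on these same peaks known. Windows are the 100 bp around a summit, shortened where they would enter an untranslated region, and at Prosalpha4 and Prosbeta2 the 30 bp around the match. The stretches are chrX:16275890-16275919 for Prosalpha4, chr3L:14999621-14999650 for Prosbeta2, chr3L:16582913-16583012 for Rpn12, chr3R:30583698-30583789 for Rpt6R, chr3R:5789217-5789316 for Rpn5, chr3R:29153312-29153411 for Rpn2 and chrX:6291246-6291302 for Rpt4. The last is from Rpt6 (chrX:21315950-21316049), which is not bound, for contrast with its copy Rpt6R.
Prosalpha4: acagcgacgacgAGGGCTGcagcaagctgt
Prosbeta2: aaaatactcttcAGGGATGcagttcacaaa
Rpn12: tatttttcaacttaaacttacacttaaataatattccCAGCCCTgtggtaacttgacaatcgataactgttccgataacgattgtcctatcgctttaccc
Rpt6R: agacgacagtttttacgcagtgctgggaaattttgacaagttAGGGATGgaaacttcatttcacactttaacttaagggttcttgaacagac
Rpn5: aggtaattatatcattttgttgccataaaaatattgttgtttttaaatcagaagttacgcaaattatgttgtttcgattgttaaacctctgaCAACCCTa
Rpn2: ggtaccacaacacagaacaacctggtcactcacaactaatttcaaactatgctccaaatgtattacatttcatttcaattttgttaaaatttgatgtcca
Rpt4: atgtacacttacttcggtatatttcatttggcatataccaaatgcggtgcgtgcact
Rpt6: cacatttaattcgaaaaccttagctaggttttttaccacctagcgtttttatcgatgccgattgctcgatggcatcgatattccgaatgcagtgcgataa

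Rpn12 carries the long form on the minus strand, Prosalpha4, Prosbeta2 and Rpt6R the short form, and Rpn5 a single match at the edge of its window. Neither the Rpn2 nor the Rpt4 window holds a match, nor does that around the pooled summit at Rpt6. Over the bound genes, AGGGNTG lay within the 100 bp around 7 of 9 strongest summits and CAGGGCTG within 3 (Prosalpha3, Prosbeta1 and Rpn12). The same strings occurred at 21.9% and 9.66% of the 1966 optimal peaks at protein-coding starts. The share was higher at strong peaks: of the 367 such peaks ranked no lower than Rpn12, 70.0% held AGGGNTG and 40.6% held CAGGGCTG, and the 5 proteasome peaks in that range held the first at all 5 sites. The distance from the centre of the nearest AGGGNTG to the summit was 3 bp at Rpt6R, 6 bp at Prosalpha3 and Prosbeta2, 10 bp at Rpn12, 21 bp at Prosbeta1, 23 bp at Prosalpha4 and 45 bp at Rpn5. A match is only a description of the letters in the window.

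The 4 strongest proteasome gene peaks lay at core genes, though over all general genes with a pooled entry the median signal was 88.6 at the core (10 genes) and 98.7 at the regulatory particle (14 genes). Prosalpha3, a subunit of the alpha ring that gates entry to the barrel, had the highest signal of the family: 2643 in the pooled list (rank 67), 1634 in replicate 2 (rank 44) and 1017 in replicate 3 (rank 111). Its peak (chr2R:20994641-20995043) had an intergenic summit 30 bp upstream of its start. Prosalpha4, also of the alpha ring, had 2088 pooled (rank 122), 1171 in replicate 2 and 945 in replicate 3 (chrX:16275674-16276376). That summit lay 342 bp upstream, in an intron of the neighbouring kat80, and a second, weaker optimal summit in the same interval (signal 406, rank 726) lay 143 bp upstream and held CAGGGCTG within its window.

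The bound beta genes encode proteolytic subunits. Prosbeta1, which carries the caspase-like site, had 2055 pooled (rank 126), 1129 in replicate 2 and 926 in replicate 3, with the summit 78 bp upstream (chr2R:16014701-16015049). Prosbeta2, which carries the trypsin-like site, had 1504 pooled (rank 237), 888 in replicate 2 and 622 in replicate 3 (chr3L:14999362-14999875). Its strongest summit was 309 bp upstream, in the 5′ UTR of mRpL39, and a second optimal summit of signal 255 lay 107 bp upstream without either ZIPIC string in its window. Prosbeta5, the remaining proteolytic subunit (chymotrypsin-like site), had no optimal peak: its signal was 93.6 in the pooled list and 100.2 in replicate 3, with no entry in replicate 2. In both replicates each of the 4 bound core genes was above 600 and ranked within the first 291 entries, so their call did not rest on 1 replicate.

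The other core subunits were weak or absent. Pooled signal was 83.5 at Prosalpha7, 75.4 at Prosbeta6, 70.7 at Prosalpha2, 58.6 at Prosalpha6 and 44.8 at Prosbeta7. Replicate 3 gave 92.2, 53.7, 78.5, 31.6 and 41.3 at the same genes in that order, and replicate 2 listed none of them. Prosalpha5 and Prosbeta3 had an entry only in replicate 3, with signals of 58.3 and 41.3, and Prosalpha1 and Prosbeta4 had none in any list. In total 4 of 14 core genes were bound (28.6%, interval 8.39 to 58.1%), and a gap without any core gene ran from 93.6 to 1504 in pooled signal.

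At the regulatory particle 4 of 18 general genes were bound (22.2%, interval 6.41 to 47.6%), a share whose interval overlaps that of the core. Among bound general genes alone, median pooled signal was 188 here and 2072 at the core, and only Rpn12 of these 4 regulatory genes exceeded 200. This order turned when weaker pooled entries were included, with the medians of 98.7 and 88.6 given above. Each of the 4 bound core genes was stronger than each of the 4 bound regulatory genes, a description of 8 sites with no test.

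Rpn12, a subunit of the lid that joins late in assembly, had a pooled signal of 906 (rank 403) at an intergenic summit 65 bp upstream of its start (chr3L:16582779-16583100). In replicate 3 its signal was 455 (rank 394), and replicate 2 listed no entry there. Rpn5, a lid scaffold subunit, had 196 pooled, 98.0 in replicate 2 and 106 in replicate 3 (chr3R:5789062-5789471), with the summit in an intron of Hat1 226 bp upstream. Rpn2, the large base subunit that holds the ubiquitin receptor Rpn13, had 144 pooled and 115.2 in replicate 3, with no entry in replicate 2 (chr3R:29153157-29153566, summit 162 bp upstream). Rpn2 was the weakest bound member, at rank 2474 of the 2971 optimal peaks. Rpt4, of the ATPase ring that unfolds substrates, had 180 pooled, 73.8 in replicate 2 and 97.6 in replicate 3 (chrX:6291078-6291487, summit 38 bp upstream).

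The strongest unbound regulatory gene was Rpt2, another ATPase of the ring, with 109 pooled (rank 3622) and 53.8 in replicate 3. Next came the ubiquitin receptor Rpn10, with 108 pooled (rank 3708) and 109 in replicate 3. The remaining regulatory genes with a pooled entry ran from 101 at Rpn6, through 96.2 at Rpt6, 86.0 at Rpn9, 84.3 at Rpn7, 78.8 at the deubiquitinase Rpn11, 77.2 at its partner Rpn8 and 64.6 at Rpn13, down to 45.2 at Rpn1. In replicate 3 these genes lay between 31.3 (Rpn8) and 90.1 (Rpn7), and replicate 2 listed none of them. Rpn3, Rpt3 and Rpt5 had a replicate 3 entry alone, with signals of 74.1, 32.8 and 36.5. Rpt1 had no entry.

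An entry in at least 1 list lay at 7 of the 16 duplicated copies, at a signal of 65.0 or below in each list for all but Rpt6R. How many of all protein-coding genes had an entry in at least 1 list was not counted. In the pooled list the share was 25.0% of copies against 50.8% of all protein-coding genes. An optimal peak was present at 1 of 16 (6.25%, interval 0.158 to 30.2%) against 8 of 32 general subunits (25.0%, interval 11.5 to 43.4%), and these intervals overlap. The bound copy was Rpt6R, with 388 pooled, 225 in replicate 2 and 173 in replicate 3, at an intergenic summit 43 bp upstream of its start (chr3R:30583637-30583857). Its general counterpart Rpt6, printed above, had 96.2 pooled and 59.5 in replicate 3. In this pair the copy was the stronger site, whereas the copies of the bound general genes Rpn12, Rpt4, Prosalpha3, Prosalpha4 and Prosbeta2 were not bound.

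Among the other copies, Prosalpha3T had 65.0 pooled, 38.3 in replicate 2 and 21.6 in replicate 3, Rpt3R had 58.0 pooled, and Prosalpha6T 35.1 pooled. Prosbeta2R2 was listed in replicate 3 only, and Prosbeta4R1 and Prosbeta4R2 in replicate 2 only, each below 40. No entry in any list lay at 9 copies: Prosalpha1R, Prosalpha4T1, Prosalpha4T2, Prosbeta2R1, Prosbeta5R1, Prosbeta5R2, Rpt4R, Rpn12R and Rpn13R. Prosalpha1R is a near copy of Prosalpha1, with 89.3% identity over the promoter window against 42.6 to 53.9% for the other 15 pairs of copy and counterpart. Over 496 pairs of different general subunits the median identity was 51.4% and the highest 57.4%. None of those 15 pairs exceeded that highest value. Neither gene of that near-identical pair had an entry, and whether the authors' treatment of reads that map to both lowered their signal was not tested.

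Promoter layout differed between the kinds of gene. A pair of genes is called head-to-head when the starts face away from each other on opposite strands within 1000 bp. This held for 22 of 32 general subunits and for 4 of 16 copies, against 5052 of 13945 protein-coding genes. Of the 22 head-to-head general genes 7 were bound (31.8%), against 33.7% of all head-to-head protein-coding genes. Of the 10 others 1 was bound, Rpn12, against 9.64% of other protein-coding genes. Among copies 0 of 4 head-to-head genes and 1 of 12 others (8.33%) were bound. Both shares of general subunits were near those of genes with the same layout, and the part of layout in the contrast with the copies cannot be told apart from that of the copies themselves at these numbers. The most exons in a transcript had a median of 3 in general genes and 2 in copies, and a single exon made up 4 general genes and 6 copies. Exons were not counted over all protein-coding genes.

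**Figure D2:**
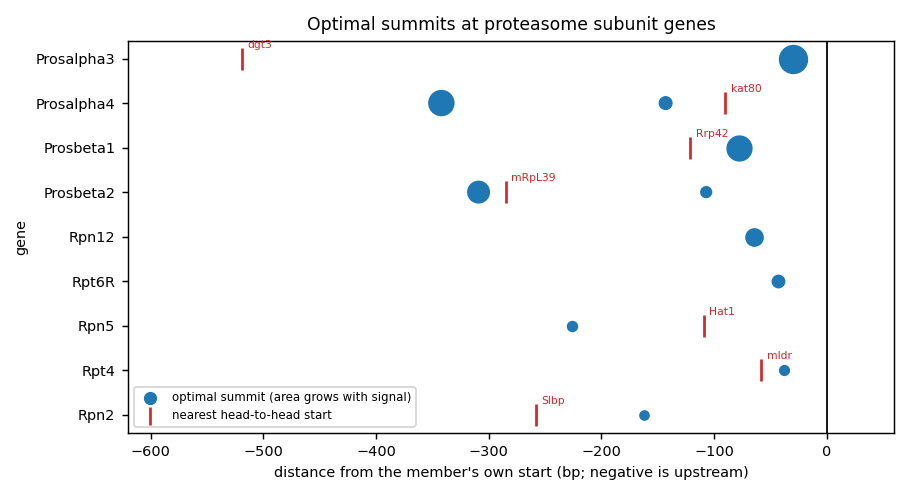
Position of each optimal summit (circles, area growing with signal) relative to the start of the bound proteasome gene (0 on the horizontal axis, bp, negative upstream). A red tick is the head-to-head neighbour's start that is nearest to the proteasome gene's start. All summits lie upstream, and Rpn12 and Rpt6R have no neighbouring start in reach.

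Neighbours shared most of these sites. All 9 strongest summits lay upstream of the proteasome gene's start, and 7 were also within 500 bp of the start of a head-to-head protein-coding gene. Head-to-head layout was common at bound genes in general: of 2561 bound protein-coding genes, 1704 had it. How many of those had a summit within 500 bp of both starts was not counted. The neighbour's start was the nearer one at 6 sites. With the gene's own start required to be nearest, the bound share of all protein-coding genes went from 18.4% to 13.3%. That of general subunits, of which 22 of 32 are head-to-head, went from 25.0% to 9.38%. No share of head-to-head genes alone was taken at this setting, so the comparison is not matched for layout. At Prosalpha4 the summit was 11 bp from an annotated start of kat80, the regulatory subunit of the microtubule-severing enzyme katanin, and 342 bp from its own. The kat80 start drawn in the figure of positions is a different one, 90 bp from that of Prosalpha4. At Prosbeta2 it was 24 bp from mRpL39, a mitochondrial ribosomal protein gene. At Prosbeta1 it lay between both starts, 43 bp from Rrp42 (RNA exosome) and 78 bp from its own. At Rpt4 the distances were 20 bp to mldr and 38 bp to Rpt4.

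Near the histone-related partners the order was the same. The Rpn5 summit was 117 bp from Hat1, a histone acetyltransferase gene, and the Rpn2 summit 96 bp from Slbp, which encodes the stem-loop binding protein of histone mRNAs. Prosalpha3 was the exception, its own start being 30 bp away and that of dgt3 (augmin complex, spindle assembly) 489 bp. The Rpn12 and Rpt6R summits had no other gene start within 500 bp. Peak lists alone cannot assign a shared summit to 1 gene of a pair.

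The replicates differed in how many general subunits they listed. An entry of any rank lay at 29 of 32 general subunits in replicate 3 (90.6%, interval 75.0 to 98.0%), against 56.5% of all protein-coding genes and 81.0% of head-to-head ones. In replicate 2 the count was 6 of 32 (18.8%), against 31.8% and 35.9%. There were 23 general subunits with an entry in replicate 3 and none in replicate 2, and 0 the other way, so that none of the 24 unbound general genes was listed in replicate 2, while over all protein-coding genes these counts were 4711 and 1260. Entries of replicate 3 alone thus outnumbered those of replicate 2 alone across the genome as well as at general subunits. In the pooled list 24 of 32 had an entry (75.0%), against 50.8% of all and 70.1% of head-to-head genes.

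By particle, replicate 3 listed 12 of 14 core genes and 17 of 18 regulatory genes, all 12 Rpn genes among them. Median signal of the 29 general entries was 74.1, against 54.8 for all protein-coding genes with an entry and 66.0 for head-to-head ones, and 15 of the 29 were among that list's strongest 2971 entries, which end at 72.0. The 16 copies showed no such gap, with 5 listed in replicate 2 and 4 in replicate 3. These are 31.25% and 25.0% of copies, against 31.8% and 56.5% of all protein-coding genes. Among the strongest 2971 entries of each replicate, 6 general subunits were called in replicate 2 (background 13.7%) and 15 in replicate 3 (background 20.1%). Their mean share was 32.8% ± 19.9 (SD, n = 2), against 16.9% ± 4.57 for all protein-coding genes, which are not matched for layout. Of head-to-head general subunits 27.3% were called in replicate 2 and 54.5% in replicate 3, against 23.0% and 36.7% of all head-to-head protein-coding genes. Of the 10 other general subunits 0 and 3 were called, against 8.39% and 10.75% of other protein-coding genes. The 1 copy called was Rpt6R in both.

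**Figure D3:**
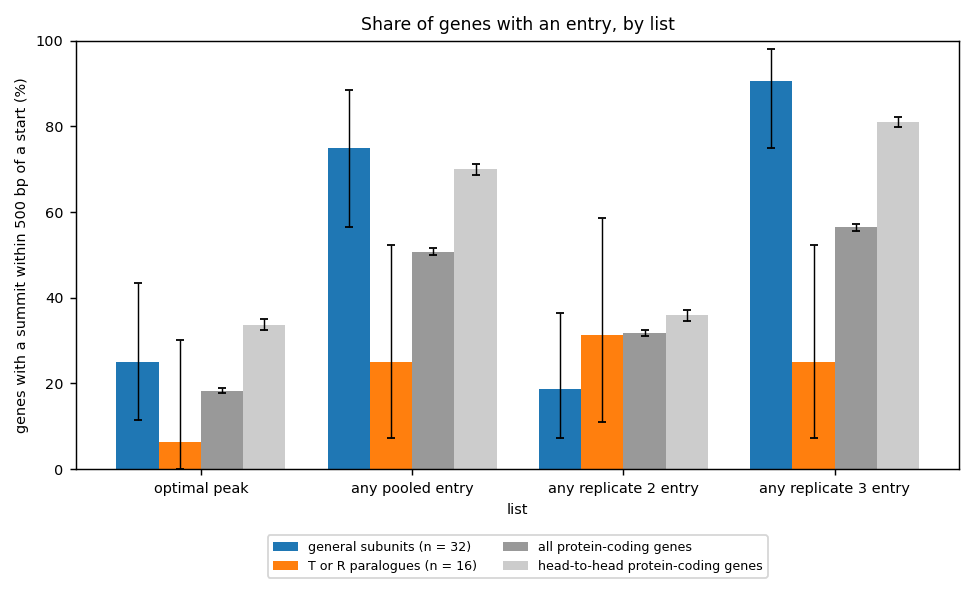
Percentage of genes with a summit within 500 bp of a start in each list, for general subunits, T or R copies, all protein-coding genes and head-to-head protein-coding genes; bars start at 0 and error bars are exact 95% intervals that cover counting error over genes only. General subunits reach 90.6% in replicate 3 and 18.8% in replicate 2.

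Rpn12 had the largest excess of pooled over replicate 3 signal of the proteasome subunit genes listed in replicate 3 and not in replicate 2. This relation was examined after its values were seen. Over 2348 optimal peaks with an entry of both replicates within 200 bp, the pooled signal was the sum of the replicates' signals to within a ratio of 0.893 to 1.12 (5th to 95th percentile, median 1.00). The 6 general subunits listed in both replicates had ratios from 0.964 to 1.05. At Rpn12 the pooled signal exceeded that of replicate 3 by 451, although replicate 2 lists nothing there. The nearest replicate 2 summits were 13830 bp below and 12166 bp above.

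Of 600 optimal peaks with a replicate 3 entry alone, the median excess was 79.7 and the highest 1393, and only 3, Rpn12 included, reached the excess at Rpn12. At the other 17 proteasome genes of this kind, pooled minus replicate 3 signal ran from -10.9 to 55.7, beside a lowest listed replicate 2 signal of 23.0. Of the 18 with Rpn12, 8 had an excess above that lowest signal and 10 did not. In proportion to replicate 3 signal Rpn12 was not the highest: Rpn8 had 77.2 pooled against 31.3, and Rpn11 78.8 against 32.1. What kept Rpn12 out of the replicate 2 list was not tested. Its absence there is thus a fact about the list and not a measurement of zero signal.

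**Figure D4:**
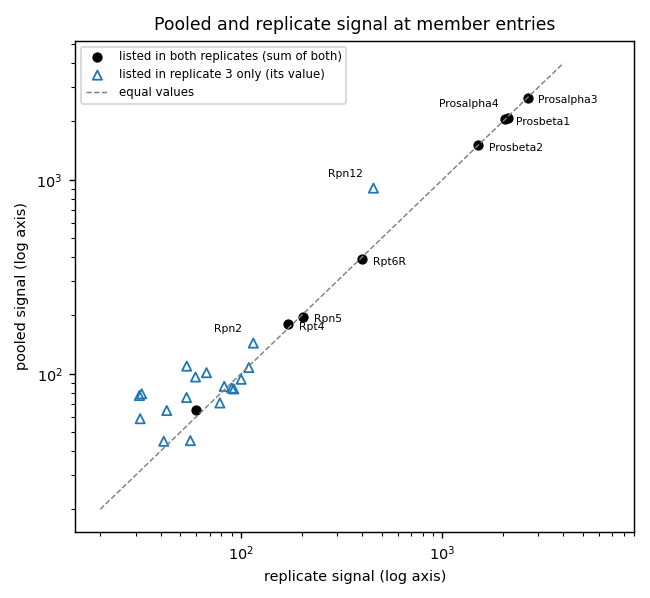
Pooled signal against replicate signal (authors' score, both axes log) at proteasome gene entries, as the sum of both replicates where both list the site within 200 bp (filled circles) and as replicate 3 alone where replicate 2 has no entry (open triangles). Filled points lie near the line of equal values. Open triangles lie on both sides of it. Rpn12 (906 pooled against 455 in replicate 3) and Rpn8 (77.2 against 31.3) are above, and Rpn1 (45.2 against 56.0) is below.

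Promoter windows, from 250 bp upstream to 50 bp downstream of the most upstream start, were searched on both strands for further strings. CGATA, the core bound by the insulator protein BEAF-32, was found in 27 of 32 general promoters (84.4%), in 8 of 16 copies and in 47.4% of all protein-coding promoters. TATCGATA, the element of the factor DREF, which itself contains the former string, was in 12 general promoters (37.5%), in 0 of 16 copies and in 9.36% of all. Both strings were also common where no peak lay: TATCGATA was in 8 of the 24 unbound general promoters, and CGATA in 21 of them.

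The ZIPIC strings were distributed otherwise. CAGGGCTG was in the promoters of 4 general genes, Prosalpha3, Prosalpha4, Prosbeta1 and Rpn12, all bound, and in none of the 24 unbound ones (all protein-coding promoters 2.32%). Rpn12R, a copy without an entry in any list, also held it. The strongest summits at Prosalpha4 and Prosbeta2, 342 and 309 bp upstream, lay outside the promoter window. At Prosalpha4 CAGGGCTG was found around the weaker summit (rank 726) and not within the 100 bp around the strongest. The AGGGNTG match at the strongest Prosbeta2 summit is not part of the promoter counts. AGGGNTG was in 7 general promoters (all 10.9%), of which Rpn8 and Rpn11 were not bound. GGTCACACT, an M1BP element, and TGACNNNGC, the form bound by the stress regulator cnc with its Maf partner, were each in 5 of 32 general promoters, against 6.05% and 8.63% of all.

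**Figure D5:**
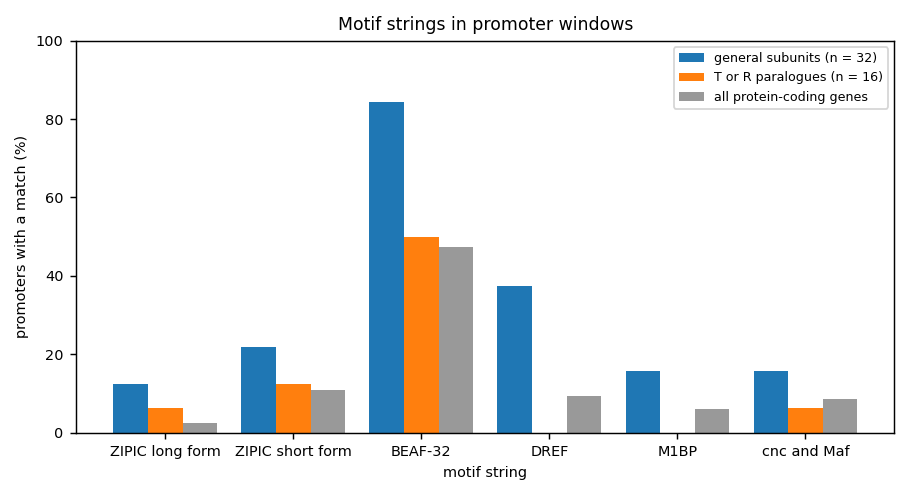
Percentage of promoter windows with a match to each string on either strand, for 32 general subunits, 16 T or R copies and all protein-coding genes; bars start at 0. The strings are CAGGGCTG (ZIPIC long form), then AGGGNTG (ZIPIC short form), and those named in the text for BEAF-32, DREF, M1BP and for cnc with Maf. General subunits reach 84.4% for the BEAF-32 string and 37.5% for the DREF string.

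Other genes of the ubiquitin-proteasome pathway were taken from a list of 21 symbols, of which 20 matched the annotation. Of these 7 were bound (35.0%, interval 15.4 to 59.2%, background as above for optimal peaks), each with its own start nearest. Uch-L5, a deubiquitinase that docks on the regulatory particle, had 2526 pooled (rank 77), 1178 in replicate 2 and 1363 in replicate 3, a strength like that of the core genes, but no ZIPIC string in the 100 bp around its summit. Ubqn, a shuttle that brings ubiquitinated proteins to the proteasome, had 1749 pooled (rank 187), 879 in replicate 2 and 877 in replicate 3, also without the string.

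The other bound pathway genes were weaker. RpS27A, a ubiquitin fusion gene, had 320 pooled, 112 in replicate 3 and, like Rpn12, no replicate 2 entry. Its window held CAGGGCTG. Pomp, the chaperone of core particle assembly, had 186, the ubiquitin-activating enzyme gene Uba1 had 163, cnc had 158 and p47, a cofactor of the segregase TER94, had 149. Not bound were REG, PI31, Usp14, Uch, Rad23, rngo, maf-S, Ubi-p63E, Ubi-p5E, RpL40, TER94, Npl4 and Sem1. As at the general subunits, replicate 3 had an entry at most of the 20 matched genes, bound or not. This was 18 of 20 (90.0%), against 56.5% of all protein-coding genes and 81.0% of head-to-head ones.

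Set beside another housekeeping complex, chosen after its values were known, general proteasome genes had a lower share bound but a higher median signal where bound. Of 92 genes for cytoplasmic ribosomal proteins 61 were bound (66.3%), with a median signal of 320, whereas the 8 bound general proteasome genes had a median of 1205 and all bound protein-coding genes 249. Over all genes with a pooled entry the order turned, with medians of 227 at ribosomal protein genes, 94.9 at general proteasome genes and 90.5 at all protein-coding genes. No test was made, since genes are not replicates.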

How the data were processed

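Peaks of ZIPIC-GFP ChIP-seq in 2 embryo samples were used as deposited. Signal values are the authors' score per entry, and each summit is a deposited offset in bases, which was checked against the interval. The optimal list came from an irreproducible discovery rate procedure, per the file headers; the sources used here name neither peak caller nor aligner. No list gives read counts, so read depth is unknown, and intervals cover counting error over genes only. Starts came from Ensembl release 115 (BDGP 6.54), and sequences from Release 6 (dm6), read with pysam 0.24.0; Python 3.11.15, pandas 2.3.3 and scipy 1.17.1 were used. Coordinates count from 1. Lists on dm3 and signal tracks were not used here. For each gene the strongest entry within 500 bp of a start was taken. Every member is named, with all lists where bound and the pooled entry otherwise, as is each neighbour within 500 bp of a bound summit. Members, gene lists and motif strings were chosen with earlier results of these data known. With 1 group, no test between conditions was possible. Scripts were tested on simulated data. Other distances, lists and windows were tried.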

Additional observations from a re-analysis of the deposited data

How the results depend on the processing

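Of the 8 bound general subunits, 8 were also called with a distance of 250 bp or 1000 bp, and 7 when the interval had to overlap the start (Rpn5 was lost). In the upper 50% of the optimal list 5 remained (regulatory 1), without Rpn2, Rpn5 and Rpt4. With any pooled entry the counts were 24 general, 10 core, 14 regulatory and 4 copies. When the member's start had to be the nearest, they were 3 general, 2 core and 1 regulatory. Prosbeta2 was kept here through its weaker summit (signal 255, 107 bp upstream), since mRpL39 is nearer to its strongest one. With the strongest entries of a single replicate, general counts ran from 6 (without replicate 3) to 15 (without replicate 2), core from 4 to 7, regulatory from 2 to 8, and copies stayed at 1. Replicate 3 alone adds Prosalpha2, Prosalpha7, Prosbeta5, Rpn3, Rpn7, Rpn9 and Rpn10, and replicate 2 alone lacks Rpn2 and Rpn12. Over all protein-coding genes the share was 10.9% in the upper 50%, 13.3% with the nearest start, 15.5% at 250 bp and 20.4% at 1000 bp. The cause of the replicates' difference was not tested. Of 9 member summits, AGGGNTG was at 5 in 50 bp and 7 in 200 bp (14.2% and 28.7% of optimal peaks at protein-coding starts), and CAGGGCTG at 2 and 3 (6.10% and 11.6%). No paired analysis was possible because there is 1 group. How depth limits the weak entries is unknown without read counts.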
